A study of Homo sapiens with 8 samples.

Results

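Peroxiredoxins, thioredoxins and superoxide dismutases are enzymes that handle superoxide and hydrogen peroxide in the cell. The members described here are PRDX1, PRDX2, PRDX3, PRDX4, PRDX5, PRDX6, TXN, TXN2, SOD1 and SOD2. They were taken from the gene table by name and coding type. These 10 genes are among 58735 in the table and 14349 that were tested, of which 11306 are protein-coding. The names match 11 rows, because SOD2 has a second coding row (ENSG00000285441) that held 6 reads over all libraries and was not tested. All 10 members passed the minimum on low values, and each did so in every group.

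The study measured RNA in 8 libraries of human HepaRG cells, a liver-derived line labelled as hepatic stem cells, and of M14A, a gene-edited HepaRG derivative. The 3 HepaRG plate libraries are wild type cells grown in flasks. The 3 M14A plate libraries are flask-grown cells whose genotype label gives transfection with FoxM1 and HNF4A. The 2 M14A printed libraries are the edited cells mixed into a bioink named GP, printed, and taken 4 hours after printing. Flask cells were detached and pelleted before lysis, while the printed material was snap-frozen and broken up by grinding, so printing and the way of collection cannot be told apart. The labels do not say whether M14A is 1 clone or whether replicates come from separate cultures, and the p-values therefore reflect only how much these libraries vary, which may be technical.

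Superoxide dismutases turn superoxide into hydrogen peroxide, SOD1 mainly in the cytosol and SOD2 in the mitochondrial matrix. Peroxiredoxins reduce that peroxide with a reactive cysteine, and most of them are returned to the reduced state by thioredoxin, which thioredoxin reductase recharges with NADPH. Hepatocytes carry a high load of oxidative metabolism and express these enzymes at high levels.

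HNF4A, 1 of the 2 genes of the genotype label, lay at 5.67, 6.24 and 6.50 FPKM in HepaRG plate, at 37.9, 43.1 and 41.7 in M14A plate and at 17.1 and 13.6 in M14A printed. FPKM are fragments divided by gene length in kilobases and by a library's size, as the authors set it. FOXM1 ranged from 12.9 to 14.9 in HepaRG plate, from 8.92 to 13.0 in M14A plate and was 10.1 in both M14A printed libraries, so FOXM1 RNA was not higher in either M14A group than in HepaRG plate. The 7 hepatocyte markers summed to 14.4 to 15.7 FPKM in the HepaRG libraries and to 433 to 585 in those of M14A plate. In the printed ones the sum was 752 to 754, and TTR and AFP were below 1 FPKM in every library. In M14A the sum came mostly from SERPINA1 and FGB, at means of 334 and 120 FPKM in M14A plate. There ALB had a mean of 26.3, and AFP was at 0.372 against 0.653 in HepaRG plate. The sum of 6 biliary and progenitor markers was 116 to 121, 26.3 to 62.0 and 46.9 to 50.3 in the same order, led by KRT19 and SPP1. Every M14A library was below every HepaRG library for SPP1, CD24, SOX9 and EPCAM. KRT7 went the other way, with a group mean of 0.463 in wild type cells, 2.03 in flask-grown M14A and 5.74 after printing. KRT19 was 49.0 in M14A plate library 1, above the 41.2 to 45.4 of the HepaRG libraries. It was 11.6 in both other M14A plate libraries, and 28.7 and 25.1 after printing. The leukocyte marker PTPRC and the endothelial marker CDH5 were at or near 0 throughout, and the summed leukocyte markers were 2.26 to 2.89, 6.60 to 10.6 and 9.94 to 11.8. That sum was nearly all from CD14 and LAPTM5, and PTPRC, CD68 and CD3E were below 1 FPKM in every library. Fibroblast markers summed to 7.09 to 7.28, 17.5 to 35.0 and 50.3 to 50.8, in M14A nearly all from DCN, with COL1A2 near 0. Other fibroblast markers went the other way by group mean in the same order: COL1A1 (1.91, 0.785 and 0.270), PDGFRB (1.80, 0.0698 and 0.0983) and COL3A1 (0.334, 0.0364 and 0.0255). Endothelial markers stayed at or below 2.18 in sum. Their part in the results was not tested. In such bulk RNA, fewer cells of a type and less RNA per cell cannot be told apart. Libraries held 15632154 to 19148262 reads on genes. FPKM totals per library were 254141 to 266419 (HepaRG plate), 272290 to 350931 (M14A plate) and 499995 to 514152 (M14A printed), and the mitochondrial genome took 6.91 to 7.25%, 8.21 to 9.72% and 13.3 to 16.4% of reads. Within M14A plate, library 1 was the odd one, correlating with the other two at 0.951 and 0.941 in log2(FPKM + 1) against 0.984 between them, and differences of members that it moved by over 1.5 times are also given without it.

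Promoter sequences were at hand for 6 of the 10 members, with 10 start sites in all, from RefSeq on GRCh38.p14. SOD2 has 4 of these start sites and PRDX5 has 2, and the windows of PRDX5 overlap. The SOD2 window at 159762282 to 159762531 lies outside the SOD2 gene that was tested, at the start of its untested second row. Sequences are shown for SOD2, the member that differed most between the lines, and for TXN and PRDX4, members that were higher in printed cells. Each stretch is the longest part of the 250 bases before the start that no annotated exon covers, read 5′ to 3′ along the gene, with matches to GGGCGG (the GC box, bound by Sp factors) or its complement CCGCCC in capitals.
SOD2, chr6:159693329-159693491, minus strand: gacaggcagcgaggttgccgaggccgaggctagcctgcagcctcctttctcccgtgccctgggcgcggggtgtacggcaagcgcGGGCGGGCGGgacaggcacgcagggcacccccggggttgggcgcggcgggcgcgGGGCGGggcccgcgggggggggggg
TXN, chr9:110256641-110256757, minus strand: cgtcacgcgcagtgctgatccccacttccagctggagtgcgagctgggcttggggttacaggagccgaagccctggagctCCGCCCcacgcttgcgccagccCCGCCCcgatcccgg
PRDX4, chrX:23667243-23667445, plus strand: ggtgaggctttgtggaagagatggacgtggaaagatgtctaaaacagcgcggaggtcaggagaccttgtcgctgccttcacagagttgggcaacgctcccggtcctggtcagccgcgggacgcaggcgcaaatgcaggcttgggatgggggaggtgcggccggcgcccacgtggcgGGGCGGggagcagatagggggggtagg
All 10 member promoters held a GC box somewhere in the 250 bases, on either strand, against 42.6% of 35116 RefSeq promoters. The 10 windows, of 6 genes, are 60.4 to 80.8% G and C, and promoters of like G and C content were not compared. This SOD2 promoter is 80.8% G and C over the 250 bases and held 6 matches, some of which overlap, the most of any member promoter. TATAAA was found in 1 of the 10, that of TXN, where matches on the 2 strands overlap, against 10.7% of all promoters. The letters TGACNNNGC (core of the antioxidant response element, bound by NRF2) and CAAAGTCCA (an HNF4A form), each searched on both strands, occurred in 0 of the 10, against 10.9% and 0.325% of all promoters. No match says only that these letters are not in these windows.

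In HepaRG plate the level per length ran, by group mean, from TXN at 359.8 FPKM through PRDX1 at 249, PRDX5 at 217, PRDX6 at 138, SOD1 at 84.7, PRDX2 at 75.4, PRDX3 at 50.8, TXN2 at 43.6 and PRDX4 at 42.5 to SOD2 at 9.59. Only the neighbours TXN2 and PRDX4 overlapped in their library values. TXN was the 40th most abundant of the tested protein-coding genes there, and SOD2 was the 3967th. The listed length of SOD2 is 16493 bases, the union of all annotated exons, against 893 to 3417 for the other members, so its FPKM are divided by a longer length than theirs, and its place in the order is given only as listed. In M14A plate 7 of the 9 neighbouring pairs overlapped, and SOD2, at rank 345, lay between PRDX2 and SOD1. In M14A printed the order was PRDX5 at 702 FPKM, TXN at 691, PRDX1 at 393, PRDX6 at 242, PRDX2 at 220.0, SOD1 at 157, PRDX4 at 115, PRDX3 at 96.4, SOD2 at 86.4 and TXN2 at 52.6, with overlap only between PRDX5 and TXN and between PRDX6 and PRDX2.

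**Figure D1:**
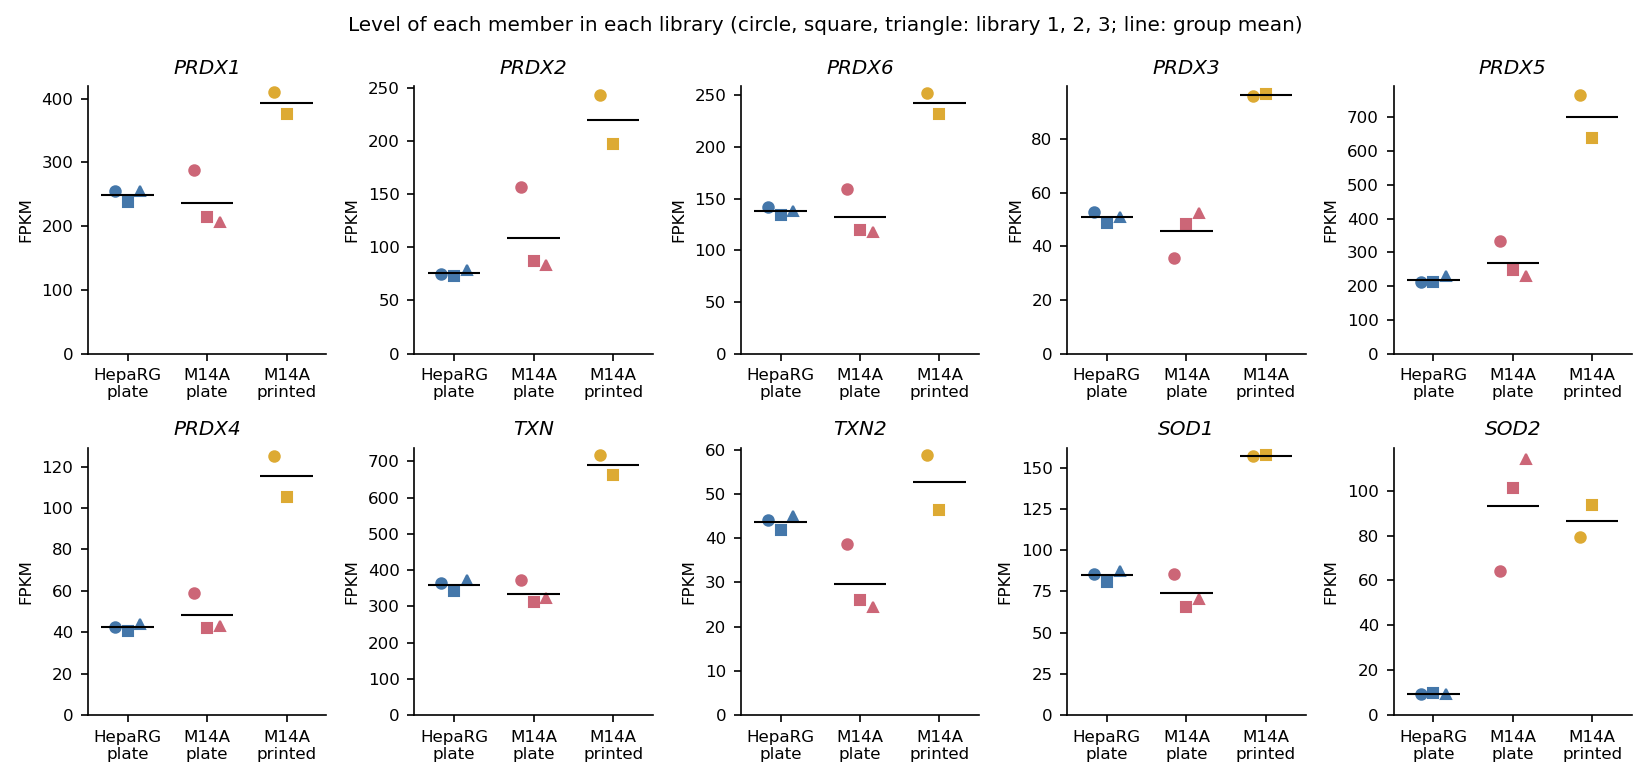
FPKM of each member in each of the 8 libraries, 1 panel a gene, on linear axes from 0, by group (circle, square and triangle are libraries 1, 2 and 3 of a group, lines are group means). SOD2 sits near 9.59 in HepaRG plate and at 64.0 or above in every M14A library, while the other 9 members are highest in the 2 printed libraries.

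SOD2 was the member that differed most between the flask-grown lines. This gene (ENSG00000112096, chromosome 6, 159669057 to 159745186, minus strand, GRCh38) encodes the manganese superoxide dismutase of mitochondria. It lay at 9.57, 9.82 and 9.38 FPKM in HepaRG plate, at 64.0, 101 and 114 in M14A plate and at 79.3 and 93.5 in M14A printed. Every M14A library was above every HepaRG library, and the M14A plate and printed values overlapped. The difference between M14A plate and HepaRG plate was 3.11 on the log2(FPKM + 1) scale, on which all fold changes here are given (SE 0.21, 95% interval 2.64 to 3.58, adjusted p = 1.2e-05 by limma, two-sided), or 9.70-fold between the means. Without M14A plate library 1 it was 3.355. It rests on 2972 to 37024 reads a library, of which the files do not say which exons they fell in: 76.9% of the annotated coding bases of SOD2 also lie in exons of other genes, 61.6% on the same strand, mainly its own second row. How the counting treated reads in more than 1 gene is not given in the sources used here.

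TXN2, the mitochondrial thioredoxin, was the only member called lower in the edited line when both were grown in flasks. Its FPKM were 44.01, 41.9 and 44.9 in HepaRG plate, 38.6, 26.1 and 24.3 in M14A plate and 58.8 and 46.4 in M14A printed. The M14A plate libraries lay below all others, and the printed libraries above all others. The difference between the lines was -0.57 (SE 0.19, adjusted p = 0.048 by limma). It did not pass when any library other than M14A plate library 1 was left out (adjusted p of 0.058 to 0.14), and was -0.77 without M14A plate library 1 (adjusted p = 0.0013).

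The remaining 8 members were not called between the lines. In all, 1 of 10 members was called higher in M14A plate, against 16.1% of all genes tested, and 1 lower, against 14.7%. The 9 members other than SOD2 had a median difference of -0.09, next to -0.04 over all genes tested. PRDX2, a cytosolic peroxiredoxin abundant in red cells, was 74.6, 73.0 and 78.6 FPKM in HepaRG plate and 157, 86.8 and 82.9 in M14A plate, a difference of 0.46 (SE 0.24, interval -0.08 to 1.00, adjusted p = 0.17 by limma). Its groups did not overlap, but M14A plate library 1 alone was far above the others, and without it the difference was 0.17 (adjusted p = 0.21). PRDX5, an atypical peroxiredoxin found in mitochondria, cytosol and peroxisomes, differed by 0.29 (SE 0.16, adjusted p = 0.21 by limma), with values of 212, 212 and 229 in HepaRG plate against 333, 246 and 229 in M14A plate, where the nearest libraries of the lines nearly met, and by 0.13 without M14A plate library 1. PRDX1 ranged from 238 to 255 FPKM in HepaRG plate and differed by -0.09 (SE 0.15, interval -0.43 to 0.25), and PRDX6, at 134 to 141, differed by -0.07 (SE 0.14, interval -0.40 to 0.26). TXN, at 342 to 374, differed by -0.10 (SE 0.12, interval -0.37 to 0.16), SOD1, at 80.6 to 87.6, by -0.20 (SE 0.13, interval -0.51 to 0.10) and PRDX4, at 40.8 to 43.8, by 0.16 (SE 0.16, interval -0.20 to 0.52). The 2 groups overlapped for each of these 5. SOD2, PRDX2 and PRDX5 were the 3 members whose groups did not overlap with M14A higher, against 25.7% of all genes, and TXN2 the 1 with M14A lower, against 27.4%.

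Of these 8, the calls for PRDX1, PRDX6, SOD1 and TXN depended on M14A plate library 1 or on the scaling. PRDX2, PRDX3, PRDX4 and PRDX5 were not called between the lines in any setting run. Without M14A plate library 1, PRDX1 (-0.24), PRDX6 (-0.21) and SOD1 (-0.31) were called lower in M14A plate as well as TXN2. So were 3220 of all 14349 genes, and TXN was at -0.18 and PRDX4 at 0.0089. Rescaling all libraries to equal FPKM totals moved the median of all genes to -0.19 and called 5 members lower, against 3421 of all 14349 genes. TXN (-0.31) was the addition to PRDX1, PRDX6, SOD1 and TXN2. PRDX3, the mitochondrial peroxiredoxin, lay at 52.7, 48.7 and 50.9 FPKM in HepaRG plate and at 35.7, 48.5 and 52.6 in M14A plate, where library 1 was the lowest of all 8, and its difference of -0.17 (SE 0.16) did not pass and was -0.0069 without that library.

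**Figure D2:**
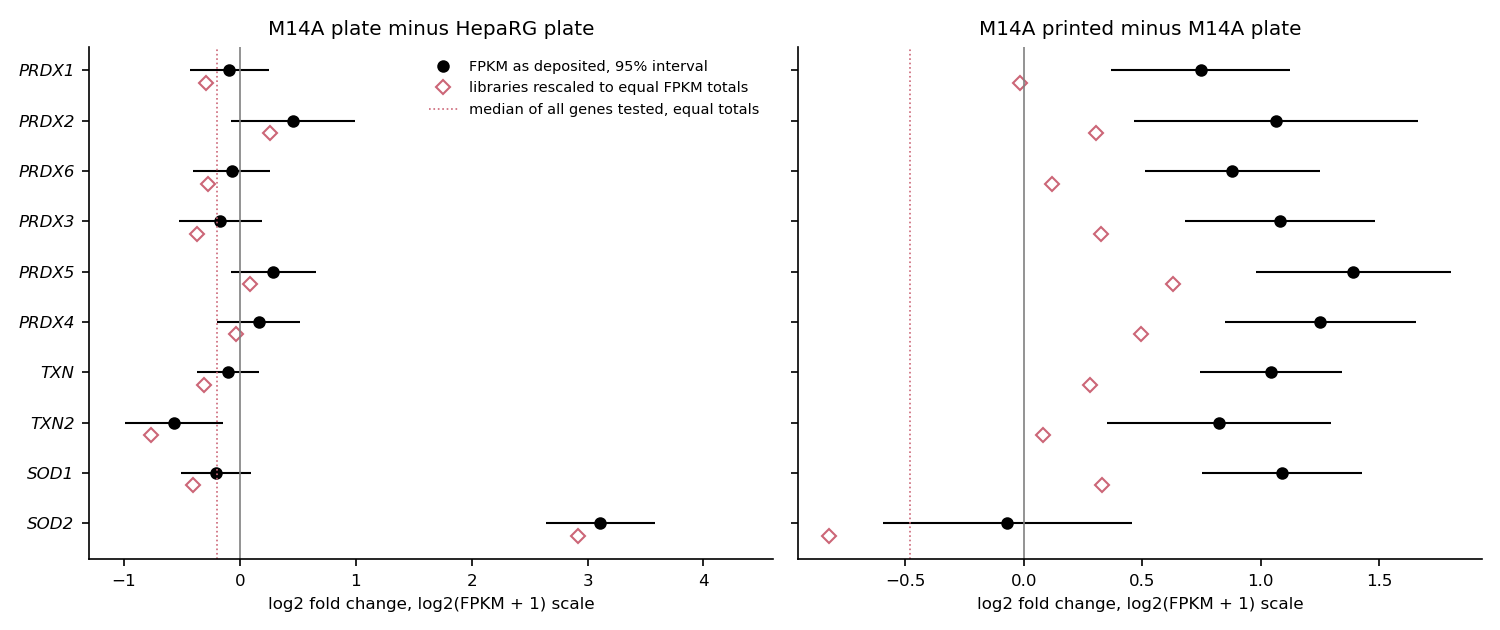
Log2 fold change of each member in M14A plate minus HepaRG plate (left) and M14A printed minus M14A plate (right). Filled points are the deposited FPKM with 95% intervals, open diamonds are libraries rescaled to equal FPKM totals, and the dotted line is the median of all genes under that rescaling. SOD2 stands at 3.11 on the left, and the other 9 members lie above 0 on the right as deposited.

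Printed M14A cells had higher FPKM of 9 of the 10 members than flask-grown M14A cells, and SOD2 was the exception. By limma 0 were called lower, also with voom weights and at an unadjusted p under 0.05. Over all genes tested, 17.7% were called higher and 15.5% lower. For those 9 members the printed and plate libraries did not overlap, as for 26.9% of all genes in that direction. The median difference of the 10 members was 1.05, next to 0.01 over all genes, and 6 of the 9 were called at 2-fold or more, against 4.97% of all genes. These libraries of M14A plate are the same ones that were compared with HepaRG plate.

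Among the peroxiredoxins, PRDX5 had the largest difference. Its printed values were 765 and 639 FPKM, against 229 to 333 in M14A plate, a difference of 1.39 (SE 0.18, adjusted p = 0.0013 by limma), or 2.60-fold between the means. PRDX4, the peroxiredoxin of the endoplasmic reticulum, was 59.2, 42.2 and 43.2 in M14A plate and 125 and 105 in M14A printed, a difference of 1.25 (SE 0.18, adjusted p = 0.0016). In both genes M14A plate library 1 was the highest plate library and still lay below both printed libraries.

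PRDX3 was 96.0 and 96.8 FPKM in the printed libraries, a difference of 1.08 (SE 0.18, adjusted p = 0.0028 by limma), and here M14A plate library 1 was the lowest plate library. PRDX2 rose to 243 and 197, by 1.06 (SE 0.26, adjusted p = 0.016). The cytosolic PRDX1 was 288, 214 and 207 in M14A plate and 409.8 and 376 in M14A printed, and its difference of 0.75 (SE 0.17, adjusted p = 0.010) was the smallest of the 9. PRDX6, which uses glutathione as its reductant and also acts on phospholipids, went from 159, 119.6 and 118 to 252 and 232, by 0.88 (SE 0.16, adjusted p = 0.0046).

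TXN, the cytosolic thioredoxin, had FPKM of 372, 312 and 322 in M14A plate and 718 and 663 in M14A printed. Its difference was 1.04 (SE 0.13, adjusted p = 0.0012 by limma). TXN2 was higher by 0.82 (SE 0.21, adjusted p = 0.017). SOD1, the copper and zinc dismutase, was 85.6, 65.7 and 70.1 in M14A plate and 157 and 158 in M14A printed, a difference of 1.09 (SE 0.15, adjusted p = 0.0015). SOD2 differed by -0.07 (SE 0.23, interval -0.60 to 0.46, adjusted p = 0.84), and without M14A plate library 1, its lowest plate library, by -0.31 (adjusted p = 0.037), which would be called lower. Without printed library 1, PRDX1 (adjusted p = 0.073), PRDX2 (0.11) and TXN2 (0.12) were not called, TXN2 was not called without M14A plate library 2 (0.055), and the other 6 were called whichever library was left out.

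Other genes of similar length and level were also higher in printed cells. Of the 504 other tested protein-coding genes with listed lengths of 893 to 3417 bases and mean FPKM of 40.6 to 433, the range of these members, 63.1% were called higher in M14A printed, with a median difference of 0.76 and quartiles of 0.42 and 1.05. PRDX1 lay just under that median, PRDX6, TXN2 and TXN between it and the upper quartile, and the other 5 above the upper quartile. Over the other tested protein-coding genes of the members' level range, the share called higher fell with listed length, from 80.0% below 1000 bases to 12.5% from 8000 bases. Among the 40 other genes of the longest class, into which SOD2 falls by its listed length, the median difference was -0.08. In M14A plate against HepaRG plate the same 504 genes had a median difference of 0.21, with 22.4% called higher.

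**Figure D3:**
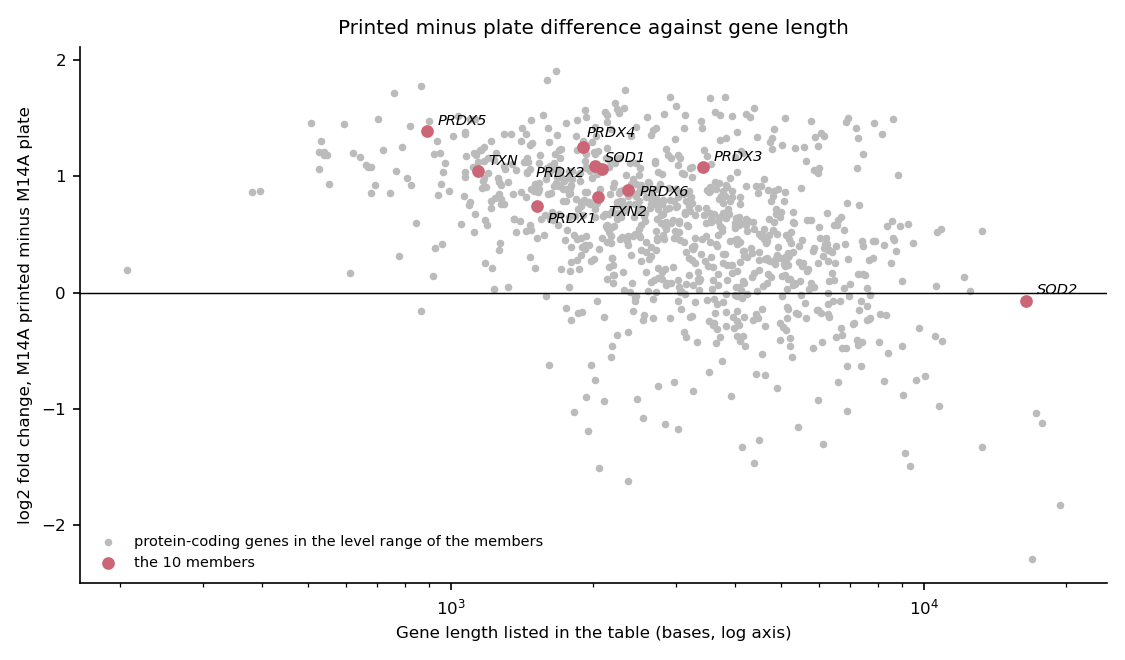
Log2 fold change of M14A printed minus M14A plate against listed gene length (log axis), for protein-coding genes in the level range of the members (grey) and the 10 members (red). Differences fall with length, and the 9 members of 893 to 3417 bases lie among other short genes, while SOD2, at 16493 bases, lies near 0.

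The size of these differences depended on how libraries were scaled. With equal FPKM totals the median of all genes in M14A printed minus M14A plate moved from 0.01 to -0.48, and the share of called genes that were higher went from 53.3 to 7.004%. On that scale 4 members were still called higher, PRDX5 (0.63), PRDX4 (0.50), SOD1 (0.33) and TXN (0.28), against 496 of the 14349 genes tested. PRDX1 stood at -0.02. Relative to the shifted median, PRDX1 was 0.47 higher and SOD2 0.34 lower. Between the lines grown in flasks the share of called genes that were higher went from 52.3 to 37.7%. Leaving mitochondrial genes out of the totals gave 6 members called higher in printed cells, the 4 above with PRDX2 (0.48) and PRDX6 (0.30). Of all 14349 genes, 829 were called higher on that scale. Under quantile normalization PRDX4 (0.71), TXN2 (0.44), SOD1 (0.42) and PRDX5 (0.31) were called higher, against 2405 of all 14349 genes. PRDX1 (-0.18) was called lower, against 2274 of all genes, and TXN stood at -0.06. PRDX4, PRDX5 and SOD1 were called higher in printed cells under each of these scalings. After each library's trend with gene length and GC content was removed, an alternative chosen after the data were seen, the same 9 members were called higher. So were 3437 of all 14349 genes.

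Ratios between members within a library are the same under any single scaling factor per library, though not under quantile normalization. PRDX1 made up 32.8, 31.9 and 32.0% of the summed FPKM of the 6 peroxiredoxins in HepaRG plate, 27.9, 28.3 and 28.2% in M14A plate and 21.7 and 22.8% in M14A printed. PRDX5 made up 27.2, 28.4 and 28.8%, then 32.3, 32.5 and 31.3%, then 40.4 and 38.8%. The 3 groups did not overlap for either gene, and the leading peroxiredoxin per length was PRDX1 in HepaRG plate and PRDX5 in both M14A groups. The ratio of PRDX5 to PRDX1 was 0.831 to 0.899, 1.11 to 1.16 and 1.70 to 1.87 in the 3 groups. PRDX5 has the shortest listed length of the 6, at 893 bases, against 1522 for PRDX1. PRDX4 held 5.47 to 5.52%, 5.56 to 5.91% and 6.41 to 6.61%, and PRDX6 17.3 to 18.2%, 15.4 to 16.1% and 13.3 to 14.1%, also without overlap. PRDX2 held 9.58 to 9.90%, 11.3 to 15.2% and 12.0 to 12.9%, with overlap of the M14A groups. PRDX3 held 6.41 to 6.77%, 3.46 to 7.19% and 5.07 to 5.88%, and its M14A plate values spanned both other groups.

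**Figure D4:**
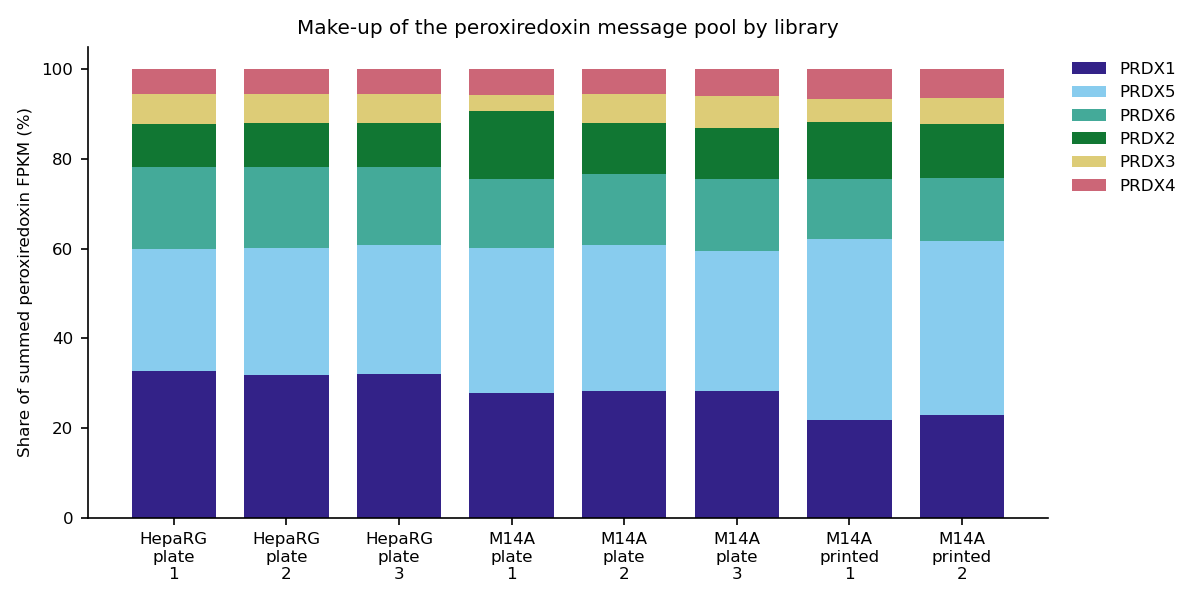
Share of the summed FPKM of the 6 peroxiredoxins held by each gene, in percent, for each of the 8 libraries. The share of PRDX1 goes from 31.9 to 32.8% in HepaRG plate down to 21.7 and 22.8% in M14A printed, and that of PRDX5 goes from 27.2 to 28.8% up to 40.4 and 38.8%.

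The ratio of SOD2 to SOD1 was 0.112, 0.122 and 0.107 in the HepaRG libraries, 0.747, 1.54 and 1.63 in M14A plate and 0.505 and 0.593 in M14A printed. The 3 groups did not overlap: both M14A groups were above HepaRG plate, and the printed libraries were below the plate libraries of the same line. SOD2 has a listed length of 16493 bases and SOD1 of 2019, and the part of length in the printed libraries' ratio was not tested. The ratio of TXN2 to TXN was 0.120 to 0.122 in the HepaRG libraries, 0.0755 to 0.104 in M14A plate and 0.0701 and 0.0818 in M14A printed, so the mitochondrial form made up less relative to the cytosolic form in every M14A library. The ratio of PRDX6 to PRDX1 was 0.541 to 0.564, 0.554 to 0.570 and 0.616 to 0.618. Together the 10 members held, of all FPKM outside the mitochondrial genome, 0.630 to 0.652% in the HepaRG libraries, 0.620 to 0.641% in M14A plate and 0.850 to 0.852% in M14A printed.

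The enzymes that recycle TXN and PRDX1 were lower relative to them in both M14A groups. TXNRD1, the cytosolic thioredoxin reductase that recharges TXN, had a mean of 206 ± 5.56 FPKM (SD, n = 3) in HepaRG plate, 136 ± 16.9 (n = 3) in M14A plate and 97.5 ± 14.9 (n = 2) in M14A printed. The ratio of TXNRD1 to TXN was 0.535 to 0.616, 0.313 to 0.459 and 0.121 to 0.163 in the 3 groups. The ratio of SRXN1, sulfiredoxin, which repairs over-oxidized peroxiredoxins, to PRDX1 was 0.0689 to 0.0701, 0.0314 to 0.0450 and 0.0145 to 0.0182. Neither ratio overlapped between groups. TXNRD1 has a listed length of 6708 bases and SRXN1 of 2698, against 1142 for TXN and 1522 for PRDX1, and the part of length in the printed libraries' ratios was not tested. The ratio of the mitochondrial reductase TXNRD2 to TXN2 was 0.0893 to 0.0976 in the HepaRG libraries, 0.183 to 0.211 in M14A plate and 0.145 to 0.190 in M14A printed, where the M14A groups overlapped.

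**Figure D5:**
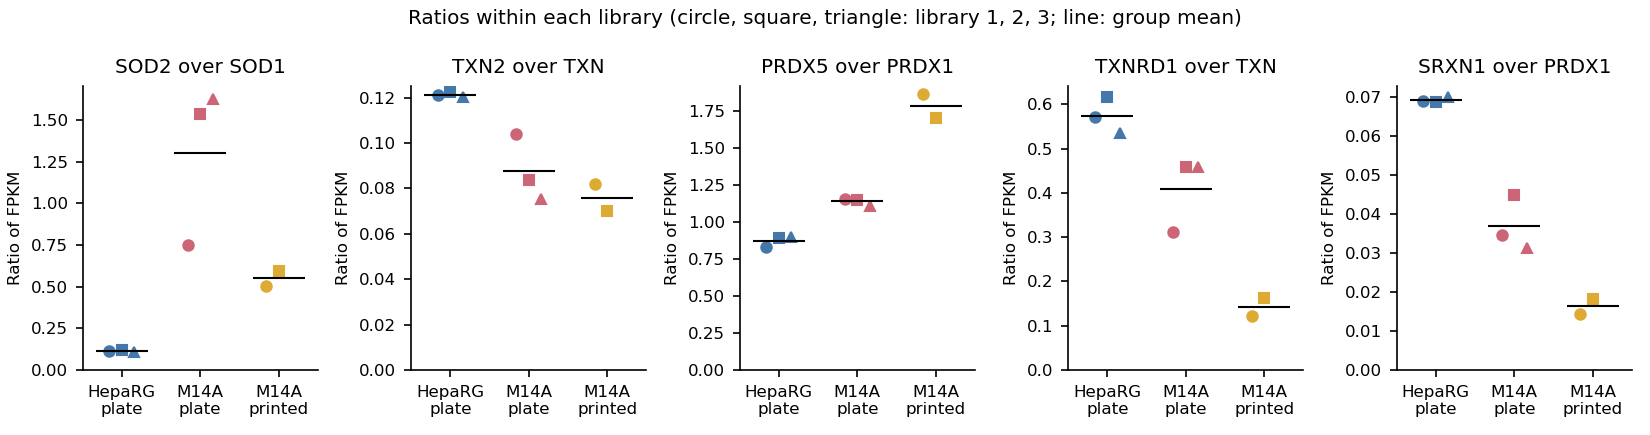
Ratios of FPKM between 5 pairs of genes in each of the 8 libraries, on linear axes from 0, by group (circle, square and triangle are libraries 1, 2 and 3, lines are group means). The ratio of SOD2 to SOD1 is lowest in HepaRG plate and highest in M14A plate, and the ratios of TXNRD1 to TXN and of SRXN1 to PRDX1 are lowest in M14A printed.

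Against HepaRG plate, where editing, printing and collection differ together, M14A printed had 9 members called higher, against 28.1% of all genes, and for all 10 members every printed library was above every HepaRG library, as for 38.5% of all genes. SOD2 differed by 3.04 (SE 0.23, adjusted p = 2.2e-05 by limma), PRDX5 by 1.68, PRDX2 by 1.53 and PRDX4 by 1.42, and TXN2 by 0.26 (adjusted p = 0.32). SOD2, PRDX2, PRDX4 and PRDX5 were called higher under each scaling, whereas PRDX1, PRDX3, PRDX6, TXN, TXN2 and SOD1 changed sign under at least 1 of them.

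Genes that recycle or bind thioredoxins and peroxiredoxins split in direction between the lines, with 4 of 12 called higher and 4 lower in M14A plate. SESN1, a stress-induced sestrin, was higher by 1.502 (SE 0.12, adjusted p = 3.0e-05 by limma), and SESN3, another sestrin, fell by 1.07. TXNIP, which binds and inhibits thioredoxin, was higher by 1.10, from 2.34 to 6.12 mean FPKM. The 4 lower became 2 without HepaRG library 1 or 2. In printed cells 3 of the 12 were called higher and 2 lower, and the 3 became 1 without any 1 HepaRG library, M14A plate library 2 or printed library 1. TXNDC17, a thioredoxin-related protein, was higher by 1.20, TXNIP fell by 0.63, and TXNRD1 fell by 0.47 with an adjusted p of 0.0497, a call lost when any library but M14A plate library 1 was left out. The TXNIP call was lost without printed library 1 (-0.55). With equal FPKM totals 1 of the 12 was called higher in printed cells and 7 lower, against 496 and 6586 of the 14349 genes tested.

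Of 7 tested enzymes that also act on superoxide or peroxide, 1 was called higher and 2 lower in M14A plate, and 4 higher and 0 lower in M14A printed by limma (0 lower also at an unadjusted p under 0.05 and with voom weights). GPX1, a glutathione peroxidase that the table lists as a polymorphic pseudogene, was 204, 195 and 228 FPKM in HepaRG plate, 729.7, 523 and 486 in M14A plate and 1747 and 1378 in M14A printed. It was higher by 1.45 (SE 0.18) between the lines and by 1.44 (SE 0.20) in printed cells, with adjusted p of 4.1e-04 and 0.0015. GPX3, a secreted form, and SOD3, the extracellular dismutase, were lower in M14A plate by log2 differences of -1.47 and -1.54. GPX4, which reduces lipid peroxides, was higher in printed cells by 1.43. CCS, the copper chaperone of SOD1, was higher there by 0.65 (adjusted p = 0.024) but stood at -0.04 with equal FPKM totals, and was not called when M14A plate library 2 or 3 or either printed library was left out. With equal totals 2 of the 7 were called higher in printed cells and 1 lower, against 496 and 6586 of the 14349 genes tested. Fewer of the 7 were called higher without printed library 2 than with it.

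In the glutathione and glutaredoxin list of 8 genes, 1 was called higher and 2 lower in M14A plate. GCLM and GCLC, the subunits of the enzyme that makes the glutathione precursor, were lower by log2 differences of -2.39 (SE 0.13) and -1.70 (SE 0.13), with adjusted p of 4.0e-06 and 3.0e-05 by limma. GLRX, the cytosolic glutaredoxin, was higher by 1.31. With equal FPKM totals 0 of the 8 were called higher in printed cells and 4 lower, against 496 and 6586 of the 14349 genes tested. As deposited, 4 of the 8 were higher there and 0 lower by limma, also at an unadjusted p under 0.05 and with voom weights. Among these 4 were GLRX (0.83), GLRX3 (0.81) and GLRX5 (0.76), none of which passed with equal totals. The 4 became 2 without M14A plate library 2 or 3 or either printed library, and the 0 lower became 2 without M14A plate library 1. GLRX5 was also not called when M14A plate library 2 or 3 or either printed library was left out. Of 4 methionine sulfoxide reductases, 1 was called higher in M14A plate, MSRB1 by 0.48, and 2 in printed cells, MSRB2 by 0.91 and MSRB1 by 0.52. With equal totals 0 of the 4 were called higher in printed cells, against 496 of the 14349 genes tested. There MSRB2 was at 0.20 (adjusted p = 0.095 by limma) and MSRB1 at -0.22. Between the lines 3 of the 4 were called lower on that scale, against 3421 of all genes. Without M14A plate library 1, 2 were lower between the lines and 3 higher in printed cells. The MSRB1 call in printed cells was lost without any 1 library other than M14A plate library 1, and that between the lines without any 1 library other than M14A plate library 1 or 3.

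NRF2, the factor that responds to oxidants and controls many of these enzymes, had 13 tested genes in its list of regulators and targets. In M14A plate 8 of them were called lower and 0 higher by limma (1 higher at an unadjusted p under 0.05, 0 with voom weights), with 11 lower without M14A plate library 1 and 3 without any 1 HepaRG library. NQO1, a quinone reductase, was lower by a log2 difference of -7.21 (SE 0.13, adjusted p = 2.0e-08 by limma), SLC7A11, the cystine importer, by -3.40 and HMOX1, heme oxygenase, by -2.17. The list's median was -0.53, next to -0.04 over all genes. In printed cells 2 were called higher and 2 lower, HMOX1 at 0.93 and MAFG, a small Maf partner, at -1.05. TALDO1, of the pentose phosphate pathway, was higher by 0.74 and stood at -0.01 with equal totals. On that scale 0 of the 13 were called higher and 4 lower, against 496 and 6586 of the 14349 genes tested. HMOX1 was then at 0.22 (adjusted p = 0.20 by limma). Without M14A plate library 1 the counts in printed cells were 6 and 5, and without printed library 1 HMOX1 (0.80) and TALDO1 (0.68) were not called, while the 2 lower became 1 without any 1 HepaRG library, M14A plate library 2 or printed library 2.

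The NF-kappaB list, of feedback inhibitors and targets, went the other way between the lines, with 10 of 11 tested genes called higher in M14A plate and a median of 1.61. By limma 0 were lower, also at an unadjusted p under 0.05 and with voom weights. CXCL8, a chemokine, was higher by 5.05 (SE 0.25), TNFAIP3, a feedback inhibitor, by 3.29 (SE 0.14) and ICAM1, an adhesion molecule, by 2.84 (SE 0.19), each with an adjusted p of 1.3e-05 or less by limma. SOD2 is, as background, a known NF-kappaB target and is not in that list. With equal FPKM totals 0 of the 11 were called higher in printed cells and 9 lower, against 496 and 6586 of the 14349 genes tested. As deposited, 1 of the 11 was called higher there and 4 lower. NFKBIA, the inhibitor that NF-kappaB induces, fell by 1.62, TNFAIP3 fell by 0.90 and CXCL8 was higher by 1.16, a call lost with equal totals (0.40) and without either printed library. Among genes that produce superoxide or peroxide, 11 of 15 did not pass the minimum on low values. By limma 0 of the 4 tested genes were called in printed cells, where ERO1A, which makes peroxide while it oxidizes proteins in the endoplasmic reticulum, was at 0.71 (adjusted p = 0.069) and at -0.02 with equal totals. At an unadjusted p under 0.05, 1 of those 4 passed, and with voom weights 0 were called. With equal totals 1 of the 4 was called lower, against 6586 of the 14349 genes tested, and 1 was called higher without M14A plate library 1 or 3.

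Over the 8 libraries, which share the group differences and the scaling, the 9 members other than SOD2 had pairwise Pearson correlations of log2(FPKM + 1) of 0.521 to 0.996, with a median of 0.912, and SOD2 correlated with them at -0.379 to 0.579. The 3 protein-coding genes most like SOD2 were ZNF544 (r = 0.999), TRIM22 (0.998) and SLC27A6 (0.997). ZNF544 was at or below 0.110 FPKM in HepaRG plate and at 1.68 to 2.54 in M14A plate. For PRDX5 they were the ribosomal protein genes RPL15, RPL13A and RPL36, with r of 0.999 or above, and for PRDX4 they were PARK7, LAMTOR5 and RPL18. Ribosomal protein genes were also among the 3 most like PRDX6 (RPL10, LSM2 and NAA10), TXN (TMEM9, RPLP1 and RPL14) and SOD1 (GTF3A, RPL3 and VDAC3). The genes most like PRDX1 were NDUFA4, PSMB9 and ERI3, those most like PRDX2 were ATP6V0B, TUFM and MLF2, those most like PRDX3 were RTRAF, SNRPE and NACA, and those most like TXN2 were CNN2, CTSF and RPS19BP1. Over all members these correlations were 0.989 or above.

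Some reads of the members could belong to other genes. PRDX1 shares 24.9% of its exon bases with MMACHC on the opposite strand, which lay at 1.83 to 7.98 FPKM, and PRDX2 shares 14.1% with AC018761.2, which was at 0 in every library. PRDX3, PRDX4, PRDX5, PRDX6, TXN, TXN2 and SOD1 share none. Of 21 processed pseudogenes named for the members, 12 were at 0 in every library, and the highest value of any was 1.68 FPKM, in a thioredoxin copy.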

How the data were processed

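RNA was taken up in TRIzol, and the NEBNext Ultra RNA kit was used for the libraries, per the labels' protocols. HISAT2 2.0.5 and featureCounts 1.5.0-p3 are named, per the submitters' processing notes. For their options, the strand setting and the build, the sources used here give nothing. The authors deposited FPKM for each gene and library with the gene lengths used, and all 58735 gene positions are identical to GENCODE 29 on GRCh38. FPKM times length is a whole multiple of its smallest step, within 0.01, for 99.9% or more of non-zero values, which gave the reads per library. The authors' denominators are 1.20, 1.20 and 1.18 times these reads in HepaRG plate and 0.968, 1.15 and 1.19 times in M14A plate. In M14A printed they are 0.818 and 0.853 times the reads. At the same share of reads, a gene therefore has its highest FPKM in the printed libraries.

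The test used limma 3.58.1 under R 4.3.3 on log2(FPKM + 1). A gene entered if it reached 1 FPKM in 2 or more libraries. All 8 libraries were fitted together with 3 group means, eBayes with trend and 5 residual degrees of freedom. Calls were made below 0.05 after Benjamini-Hochberg adjustment over all 14349 genes, two-sided. The spread of the 2 printed libraries is taken from all groups. The procedure was tested on simulated data. Replicates differed by more than sampling noise (chi-square per degree of freedom 2.69 to 69.3), so none was counted as a duplicate. 0 columns of values were left without a sample.

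The members and the 7 gene lists (74 genes) were chosen with earlier results of these data known. Named are all members, FOXM1 and HNF4A, up to 3 called genes of largest change per list and comparison (or the most abundant where none was called), and the 3 genes most correlated with a called member. One gene that this rule names is not reported here. TXNRD2, SRXN1, the markers and the pseudogene copies were singled out after their values were seen. Alternatives were another pseudocount, filters, scalings, a fit restricted to both groups of a comparison, no eBayes trend, voom weights on the reads, a replicate block, leaving out each library, and a threshold of 0.01. Removal of the trend with gene length and GC content, with and without M14A plate library 1, was added after the data were seen.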

Additional observations from a re-analysis of the deposited data

How the results depend on the processing

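Of 10 members, 1 was called higher between the flask-grown lines in every setting run. The 1 called lower became 0 with no filter, with only the groups compared and at the 0.01 threshold, 5 under equal totals, equal totals without mitochondrial genes and quantile normalization, 3 with the length and GC trend removed (5 when also without M14A plate library 1), and 0 to 4 with single libraries left out. The 9 called higher in printed cells became 4 under equal totals and under quantile normalization, 6 under equal totals without mitochondrial genes, 6 with only the groups compared and at the 0.01 threshold (PRDX1, PRDX2 and TXN2 being lost), 8 with no filter (without PRDX2) and 6 to 9 with single libraries left out, and the 0 called lower became 1 under quantile normalization and 0 to 1 with single libraries left out, where the 1 is SOD2 without M14A plate library 1. Of all 14349 genes, printed against plate cells had 496 called higher under equal totals, 829 without mitochondrial genes and 2405 under quantile normalization. Between the lines 3421, 2809 and 2592 were called lower, in the same order. The cause of these changes in the counts was not tested. Signs changed in printed against plate cells for PRDX1 (-0.015 equal totals, -0.18 quantile), TXN (-0.062 quantile), CCS (-0.038), TALDO1 (-0.011), ERO1A (-0.018) and MSRB1 (-0.22, and -0.049 without mitochondrial genes) under equal totals, and for SOD2 (0.39 with the trend removed, 0.18 also without library 1, and -0.31 to 0.098 with libraries left out). Between the lines they changed for PRDX4 (-0.036 equal totals, -0.024 quantile, -0.086 and -0.15 with the trend removed), PRDX5 (-0.035 quantile), TXN (0.042 trend removed) and PRDX6 (-0.21 to 0.0042 with libraries left out). In printed cells against HepaRG plate they changed for PRDX1 (-0.31 equal totals, -0.057 without mitochondrial genes, -0.61 quantile), PRDX6 (-0.15, -0.31 quantile), PRDX3 (-0.042), TXN (-0.027, -0.50 quantile), SOD1 (-0.072, -0.035 quantile) and TXN2 (-0.69, -0.44 without mitochondrial genes, -0.35 quantile, -0.23 with the trend removed, with or without library 1), where a first or lone value is for equal totals. With the replicate number as a block, SOD2 in printed minus plate was 0.0071, and no other member changed its call or sign. Deviations of same-numbered libraries correlated at -0.155 to 0.081 between HepaRG and M14A plate. For the 2 plate and printed pairs they were at 0.365 and 0.487, and for differently numbered plate and printed libraries at -0.487 to 0.433. The 2 printed libraries deviate from their mean by equal and opposite amounts, so these values cannot show whether the numbers are pairs. The main fit did not pair them. Over the 3 comparisons, 172, 179 and 189 of 210 member values each, for the lines, printed against plate and printed against HepaRG plate, kept their direction and side of the threshold. No member is limited by depth: the lowest held 981 reads.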
